A study of Rattus norvegicus with 9 samples.

Results

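The state of the rat hypothalamus 7 d after a lesion of the pituitary stalk was described from 6 of the 9 libraries of the series, namely the 3 titled PEL_7d and the 3 titled Control. They were chosen by title alone. All were made from total RNA of S-D strain rats, taken from tissue that held the supraoptic nucleus (SON) and the paraventricular nucleus (PVN). The labels leave PEL unexplained, and it stands for pituitary stalk electrical lesion in the publication. The 7 d rats had this surgery 7 d before the tissue was taken, and the Control rats are given only as Control, so whether they had a sham operation is not known. No label gives the sex, the age or the number of animals behind a library, and p-values therefore measure the spread between these libraries, which may be technical. The 3 libraries titled PEL_1d, taken 1 d after the surgery, entered the statistical fit to help estimate the spread and were not part of the contrast. They also entered the filter on low counts and the scaling.

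The SON and PVN hold the large magnocellular neurons that make vasopressin and oxytocin. Their axons run through the pituitary stalk to the posterior lobe, where both hormones enter the blood. Vasopressin makes the kidney retain water, and its loss causes central diabetes insipidus, the passing of large volumes of dilute urine. Cutting or burning the stalk severs these axons, and injury of that kind is known to be followed by responses of the neurons themselves and of the surrounding glia.

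Gene identity limits what can be said. The count table gave Ensembl rat gene IDs, or IDs of another form, with no symbols, and 0 of its IDs were matched to a symbol in the rat gene table used here. Genes were ranked by their fold change among those that met a fixed rule (a call, a mean of at least 5 CPM, the count scaled to library size, in the higher group, and no overlap between the groups). The first 2 rises and the first 2 falls are given by ID and the others by rank. For the same reason the labelled tissue was not checked against its marker genes, and markers of glia, blood or neighbouring tissue were not examined.

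Total counts per library were 18948576 to 21012998 in Control and 17014260 to 18685921 at 7 d, so every 7 d library was shallower than every Control library. The controls were not equally alike. The root mean square difference in log2 CPM over the 17345 genes tested was 0.515 between Control replicates 2 and 3, 0.618 between replicates 1 and 2, and 0.692 between replicates 1 and 3. Control replicate 1 also stood alone more often than any other of the 6 libraries. Of 12435 genes with a mean of at least 5 CPM in either group, 115 were at least 2-fold higher in Control replicate 1 than in the next of the 6 libraries, and 52 were at least 2-fold lower. In the other 5 libraries these numbers were 11 to 24 and 2 to 11. The 20 most abundant genes took 12.25% of the counts of Control replicate 1, 9.59% and 9.73% of those of replicates 2 and 3, and 11.49 to 12.35% at 7 d.

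By 7 d after the lesion 146 genes had risen above Control and 31 had fallen below it, called by edgeR's quasi-likelihood test at a Benjamini-Hochberg adjusted p below 0.05. These are 0.842% and 0.179% of the genes tested, 1.02% together. The genes that rose were about as abundant as genes in general, and the genes that fell were more abundant. The median level over the 6 libraries was 17.2 CPM for the rises and 60.01 CPM for the falls, against 16.6 CPM for all genes tested. Falls were also the smaller changes. Of the 31 falls 25 were under 2-fold, 6 lay between 2-fold and 4-fold and 0 were larger, and of the 146 rises 72 were under 2-fold, 48 between 2-fold and 4-fold, and 26 at or above 4-fold. In bulk tissue fewer cells of a type and less RNA per cell cannot be told apart. IDs outside Ensembl's naming made up 5 of the rises (3.42%) and 1 of the falls, against 9.08% of all genes tested.

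All 146 rises had their 3 libraries at 7 d above the 3 Control libraries, and all 31 falls had them below. This alone is not a mark of the called genes, since 8.85% of all genes tested lay wholly above and 7.40% wholly below. Many calls were close to the threshold. An adjusted p between 0.03 and 0.05 was found for 68 of the rises and 15 of the falls, and one under 0.01 for 15 rises and 4 falls. A further 181 genes had an adjusted p between 0.05 and 0.10.

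The largest rise was that of ENSRNOG00000024028. It had 2, 0 and 0 counts in Control replicates 1, 2 and 3, or 0.105, 0 and 0 CPM, and stood at 10.6, 15.01 and 3.48 CPM in 7 d replicates 1, 2 and 3. The gene was thus nearly silent in Control and present in every library at 7 d, at levels that varied from 3.48 to 15.01 CPM. Its mean was 9.69 ± 5.82 CPM at 7 d (SD, n = 3) against 0.0349 ± 0.0605 CPM in Control (SD, n = 3), and the ratio of depth-scaled counts was 283, with an exact 95% counting interval of 77.8 to 2340. The call had an edgeR adjusted p of 0.0157 with all libraries.

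Both Control counts of this gene were in Control replicate 1. Without that library the remaining controls were at 0, and the gene was at least 127-fold higher at 7 d, taking 3 counts over both controls as the floor. The call stayed without Control replicate 1 (edgeR adjusted p = 0.0489). It was lost without Control replicate 2 (adjusted p = 0.0870) and without Control replicate 3 (adjusted p = 0.0686). At 1 d the gene stood at 4.34 ± 2.60 CPM (SD, n = 3).

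The second rise was that of ENSRNOG00000048295. It measured 0.105, 0.107 and 0.236 CPM in the Control libraries, from 2, 2 and 5 counts, and 11.4, 2.74 and 12 CPM at 7 d. In this gene 7 d replicate 2 was the lowest of its group, whereas for ENSRNOG00000024028 it was the highest. The depth-scaled ratio was 58.0 (exact 95% counting interval 30.3 to 127), and the fitted log2 fold change was 5.78 (SE 0.636, edgeR adjusted p = 0.00744). Control replicate 1 had little bearing on it: without that library the log2 fold change was 5.59 and the adjusted p 0.0154. The call was lost without Control replicate 2 (adjusted p = 0.0557) and held without Control replicate 3 (adjusted p = 0.0316). At 1 d the level was 1.91 ± 0.0671 CPM (SD, n = 3).

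The largest fall was that of ENSRNOG00000021229, by far the most abundant of the ranked genes. Its level was 1892, 1420 and 1131 CPM in Control replicates 1, 2 and 3, and 399, 573 and 413 CPM at 7 d. The groups stood well apart, but Control replicate 1 was the highest of the controls and so widened the gap. The edgeR log2 fold change with all libraries was -1.68 (SE 0.282, adjusted p = 0.0409), and it was -1.47 (adjusted p = 0.0597) without Control replicate 1, so this call was lost. It was also lost without Control replicate 2 (-1.71, adjusted p = 0.120) and without Control replicate 3 (-1.84, adjusted p = 0.0641). Nor was it called without 7 d replicate 1, 2 or 3 (edgeR adjusted p = 0.132, 0.0903 and 0.133). The call was thus kept in 0 of the 6 fits that left out a compared library. Over 18 alternatives its log2 fold change ran from -1.87 to -1.47, and its call held in 8 of them. Its direction could hardly change, since the gene was ranked only because the groups did not overlap. At 1 d the gene stood at 2438 ± 712 CPM (SD, n = 3), above the Control mean of 1481 ± 384 CPM (SD, n = 3).

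The second fall was that of ENSRNOG00000031662, a gene of low abundance. It measured 7.49, 7.66 and 6.42 CPM in Control and 3.83, 1.85 and 2.91 CPM at 7 d. Control replicate 1 lay between the other controls here, and leaving it out changed little: the log2 fold change was -1.32 (SE 0.252, edgeR adjusted p = 0.0390) with it and -1.29 (adjusted p = 0.0291) without it. The call was lost without Control replicate 2 (adjusted p = 0.133) or replicate 3 (adjusted p = 0.0635). At 1 d the gene stood at 6.51 ± 1.04 CPM (SD, n = 3).

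**Figure D1:**
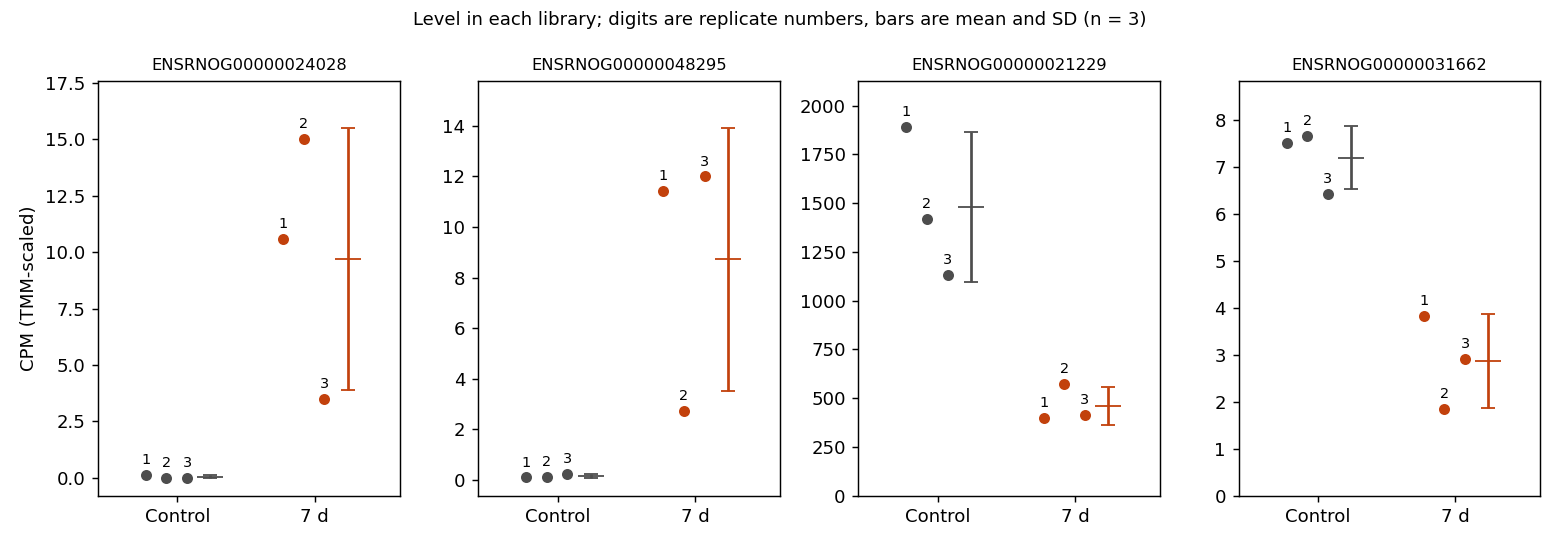
Level of the 4 genes given by ID in each Control and 7 d library, in CPM on TMM-scaled library sizes, with replicate numbers beside the points and the mean and SD (n = 3) at the right of each group. In ENSRNOG00000021229 Control replicate 1, at 1892 CPM, is the highest control; in the other 3 genes it lies close to another control.

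Among the 12 largest rises the fold changes ran from 6.49 upward, and among the 10 largest falls from 1.73 to 3.21. The rise of rank 12 was the most abundant of the rises shown, at 114, 78.5 and 93.4 CPM in Control and 743, 714 and 397 CPM at 7 d, against 124.9 ± 33.5 CPM at 1 d (SD, n = 3). Its log2 fold change was 2.70 with all libraries (edgeR adjusted p = 0.0148) and 2.84 without Control replicate 1 (adjusted p = 0.0259). The rise of rank 5 was low in Control and even at 7 d. It measured 0.419, 0.589 and 0.142 CPM in Control and 8.04, 5.96 and 6.45 CPM at 7 d, and its call held whichever of the 9 libraries was left out.

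In the rises of ranks 4 and 6, Control replicate 1 was the highest control and narrowed the difference. The rise of rank 4 stood at 0.681 CPM in Control replicate 1 against 0.107 and 0.189 CPM in replicates 2 and 3, and its log2 fold change went from 4.19 to 5.26 without that library. For the rise of rank 6 these levels were 2.67 CPM against 0.429 and 1.18 CPM, and the log2 fold change went from 4.0 to 4.79. Both were called with and without Control replicate 1 (edgeR adjusted p = 0.0158 and 0.0383 without it). Both calls were lost without Control replicate 2 (adjusted p = 0.110 and 0.112) and without replicate 3 (adjusted p = 0.108 and 0.162). With 1 of the 9 libraries left out in turn, rank 4 was called in 4 fits and rank 6 in 1.

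Some high ranks rested on part of a group. The rise of rank 3 measured 8.60 and 6.08 CPM in 7 d replicates 1 and 2 but 0.729 CPM in replicate 3, against 0.161 to 0.262 CPM in Control. It was not called without Control replicate 1 (edgeR adjusted p = 0.0655). The rise of rank 8 measured 2.52, 1.45 and 6.13 CPM in Control, so that replicate 3 was the high control, and 25.1, 31.5 and 20.3 CPM at 7 d. Its log2 fold change was 2.91 with all controls, 2.73 without replicate 1 (edgeR adjusted p = 0.0597) and 3.69 without replicate 3 (adjusted p = 0.00480).

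The falls of ranks 5 and 7 had closely matched controls. The fall of rank 5 measured 463, 453 and 464 CPM in Control and 222, 191 and 282 CPM at 7 d, a log2 fold change of -0.99 with and without Control replicate 1. The fall of rank 7 measured 57.9, 55.1 and 53.3 CPM in Control and 30.8, 26.5 and 34.7 CPM at 7 d, with log2 fold changes of -0.85 and -0.82. In both, the 3 controls differed by far less than the groups did. At 1 d these genes stood at 333 ± 20.8 and 41.3 ± 0.606 CPM (SD, n = 3), between the Control and the 7 d levels.

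**Figure D2:**
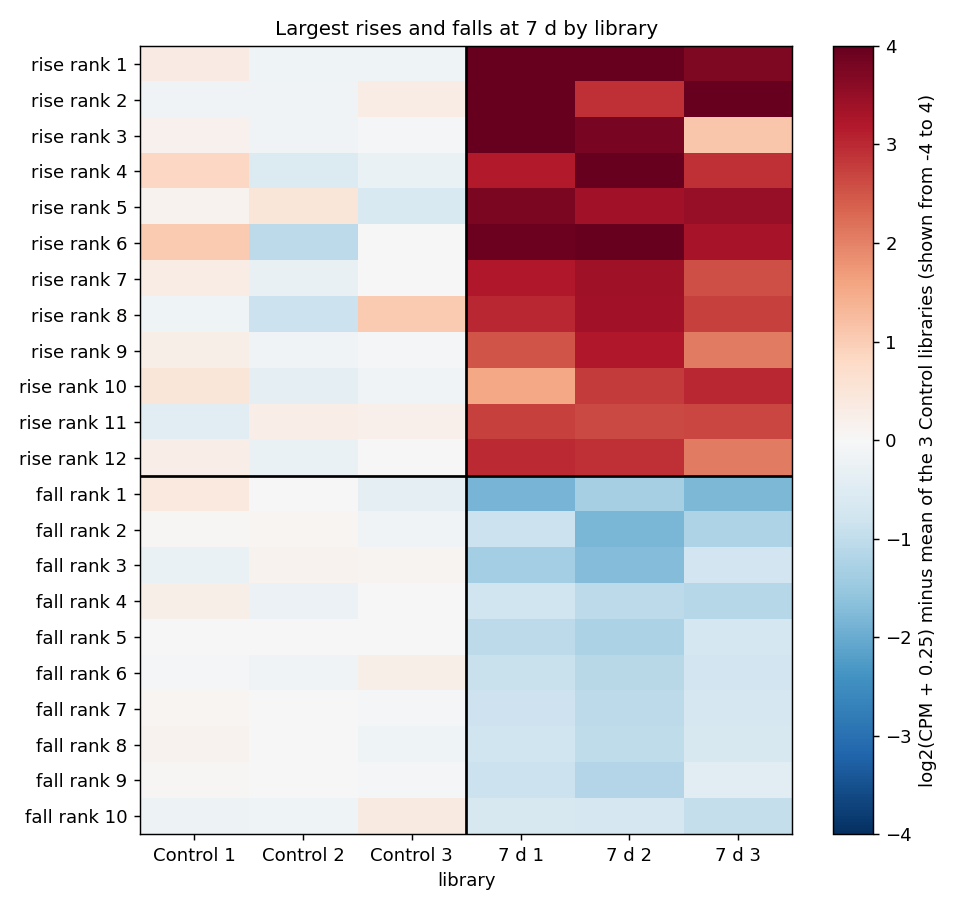
Difference of each library from the mean of the 3 Control libraries, on the log2(CPM + 0.25) scale, for the 12 largest rises and the 10 largest falls at 7 d, with colours limited to 4 log2 units in either direction. Each row shows all 3 libraries at 7 d on 1 side of the controls; the rise of rank 3 is faint in 7 d replicate 3, and Control replicate 1 is redder than the other controls in the rises of ranks 4 and 6.

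The 7 d libraries held a regular order over the called genes. Replicate 2 was the highest of the 3 in 98 of the 146 rises (67.1%) and the lowest in 22 of the 31 falls (71.0%), against 34.7% and 34.3% of all genes tested. Replicate 3 was nearest to Control most often, as the lowest in 92 rises (63.0%) and the highest in 18 falls (58.1%), against 33.7% and 29.4% of all genes tested. These shares describe genes that were picked with the same libraries. The median size of the shift in log2 fold change when a 7 d library was left out was 0.0496 to 0.0788 for the rises and 0.0317 to 0.0712 for the falls.

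Leaving out Control replicate 1 moved the called genes little. These genes were called with that library in the fit, which favours genes where it lay near the other controls. The small movement is thus in part set by how the genes were chosen. Of the 177 genes, 171 were called without it, 141 of the rises and 30 of the falls, where the background of calls was 4.18% of 17665 genes tested. The log2 fold change moved by less than 0.1 for 122 genes, by 0.1 to 0.5 for 51 and by more than 0.5 for 4, all of which were rises with a mean of at most 12.2 CPM. No direction changed, and hardly any could, since the groups did not overlap in any of the 177. The rise became larger without Control replicate 1 for 104 of the 146 genes, and the fall larger for 18 of 31. Control replicate 1 was the highest control in 81 of the rises (55.5%, against 38.1% of all genes tested) and the lowest in 12 of the falls (38.7%, against 40.01%). The adjusted p became smaller for 149 of the 177.

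The 6 genes whose call was lost without Control replicate 1 were 5 rises and 1 fall, among them ENSRNOG00000021229 and the rises of ranks 3 and 8. Their edgeR adjusted p went from 0.0298 to 0.0499 with all libraries to 0.0516 to 0.0831 without it. In 4 of the 5 rises Control replicate 3 was the highest control. All 6 were lost without Control replicate 2 as well.

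**Figure D3:**
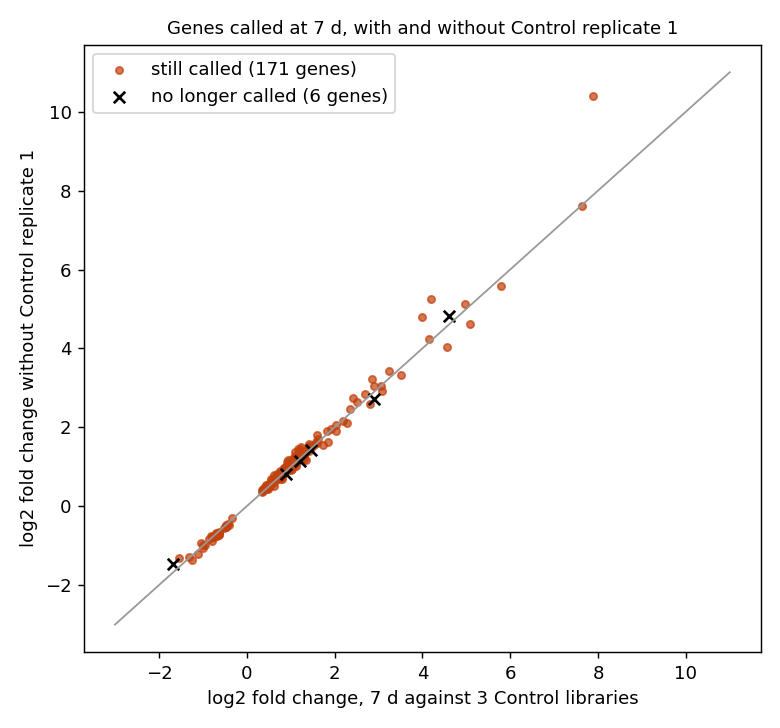
Log2 fold change at 7 d of the 177 called genes against all 3 Control libraries (x axis) and without Control replicate 1 (y axis); the line marks equal values, and crosses mark genes no longer called. The 6 genes lost and most of the 171 still called lie near the line. Exceptions are 4 rises whose log2 fold change moved by more than 0.5. The point farthest from the line is ENSRNOG00000024028, whose remaining controls were at 0.

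The calls depended more on Control replicate 2 than on replicate 1. Without Control replicate 2 only 6 of the 177 genes were called, 5 rises and 1 fall, and without replicate 3 there were 72, 58 rises and 14 falls; the backgrounds were 0.0396% and 0.555% of the genes tested. Yet the fold changes hardly moved: the median shift of a rise was 0.0672 in log2 without replicate 1, 0.0437 without replicate 2 and 0.0607 without replicate 3. Over the 3 fits that left out a control, more genes were called where the estimated spread was lower. The common biological coefficient of variation was 0.161 without Control replicate 1, 0.179 without replicate 3 and 0.191 without replicate 2. With all libraries, where 177 genes were called, it was 0.189. That fit is larger, so its number of calls is not directly comparable. Without 1 d replicate 3, in a fit as large as those without a control, it was also 0.189, with 105 calls. This is close to the 0.191 without Control replicate 2, where 7 genes were called in total, so the calls did not follow this coefficient over all fits. Without 7 d replicates 1, 2 and 3 this coefficient was nearly constant, at 0.198, 0.197 and 0.198, although the number of calls differed. What sets the number of calls was not tested. Without 7 d replicates 1, 2 and 3, 37, 25 and 101 of the 177 were called, and without 1 d replicates 1, 2 and 3, 87, 99 and 101. The 1 d libraries enter the spread, the filter and the scaling but not the contrast.

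**Figure D4:**
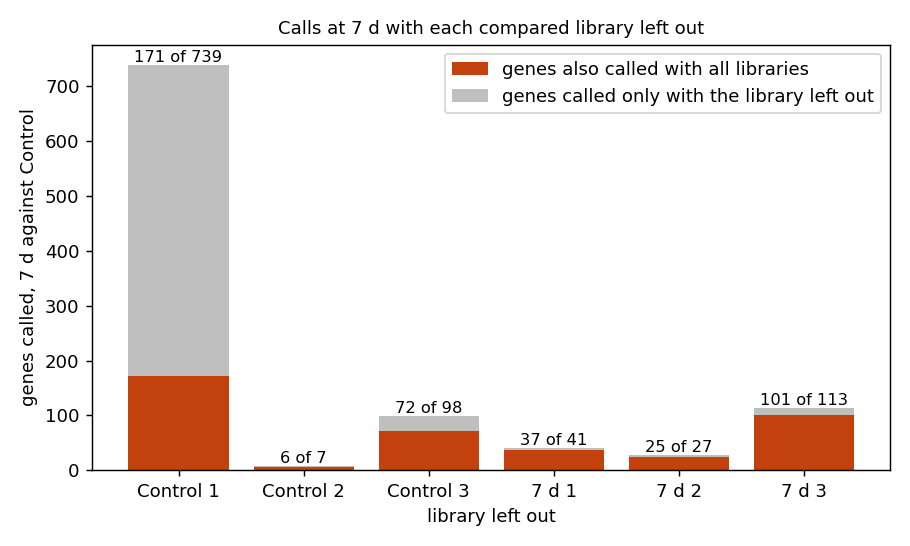
Number of genes called at 7 d with each of the 6 compared libraries left out in turn; the lower part of a bar counts genes also called with all libraries. The bar without Control replicate 1 reaches 739 genes, 171 of them shared, and the bar without Control replicate 2 reaches 7, 6 of them shared.

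A small core of 6 genes, 5 rises and 1 fall, was called whichever of the 9 libraries was left out, and all 6 were also called in a fit of the 6 compared libraries alone, which called 28 genes (0.165%). The changes of these 6 genes were 1.73- to 17.8-fold and their mean levels 3.60 to 202 CPM. They were the only ones of the 177 called without Control replicate 2, so that fit set which genes the core held. A further 15 rises and 3 falls were called in 5 of the 6 fits that left out a compared library. DESeq2 on all 9 libraries called 523 genes (3.02%), among them all 177. The core held the rises of ranks 5 and 7. The rise of rank 7 measured 2.20, 1.39 and 1.75 CPM in Control and 18.3, 20.6 and 11.8 CPM at 7 d, which edgeR put at a log2 fold change of 3.24 (SE 0.302, adjusted p = 0.00352).

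The other 3 core rises were smaller. They went from 48.1, 38.8 and 38.1 CPM to 80.9, 93.5 and 94.1 CPM, from 7.39, 6.43 and 6.94 CPM to 16.6, 19.9 and 19.1 CPM, and from 10.9, 11.6 and 9.11 CPM to 20.9, 21.4 and 21.9 CPM. The core fall went from 257, 254 and 255 CPM to 139, 139 and 166 CPM, a log2 fold change of -0.79 with all libraries and -0.78 without Control replicate 1. In each of these genes the controls differed among themselves by less than they differed from 7 d. In the first of the smaller rises Control replicate 1 was the highest control. The log2 fold change of that gene was 1.10 with all libraries and 1.22 without Control replicate 1. At the other end, 52 rises and 11 falls were called in 1 of the 6 fits that left out a compared library. The largest fall, ENSRNOG00000021229, was called in 0.

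A further 568 genes, 199 higher and 369 lower, were called at 7 d only when Control replicate 1 was left out. With it in place their median adjusted p was 0.168 for the higher and 0.350 for the lower genes. With them the balance of directions differed: the fit without Control replicate 1 called 340 higher and 399 lower genes, or 1.92% and 2.26% of the genes tested, against the 146 and 31 with it. Scaled by library totals alone, that fit called 330 higher and 592 lower genes, and a fit of the 5 compared libraries left called 308 and 309. DESeq2 without Control replicate 1 called 535 higher and 725 lower genes. When 7 d replicate 1, 2 or 3 was left out as well, higher genes outnumbered lower ones. The numbers were 206 against 153, 180 against 157 and 184 against 71. The excess of lower genes thus did not hold in these smaller fits, which were chosen after the data were seen. The 568 genes showed smaller differences than the 177, with median log2 fold changes without Control replicate 1 of 0.60 and -0.54 and, with it, of 0.44 and -0.37.

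The position of Control replicate 1 was placed on a scale from the mean of the other controls, at 0, to the mean of the 7 d libraries, at 1. For the 177 genes called with all controls its median position was 0.110 for both the rises and the falls, close to the other controls. For the genes called only without it, the median was 0.647 for the 199 higher genes and 1.03 for the 369 lower genes. Control replicate 1 lay within or beyond the range of the 7 d libraries in 67 of the higher genes (33.7%) and in 253 of the lower genes (68.6%), and in 0 of the 177. For most of these lower genes it thus had the level of the 7 d libraries and not that of the other controls. For all genes tested, the share with Control replicate 1 in or beyond the 7 d range was not computed. Part or all of this pattern follows from how the sets were formed. The groups did not overlap in any of the 177 genes, and leaving out a control that lies apart can by itself bring a call. The share of counts taken by the 20 most abundant genes, where Control replicate 1 was also at the level of 7 d, moved with this pattern; its part in it was not tested.

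**Figure D5:**
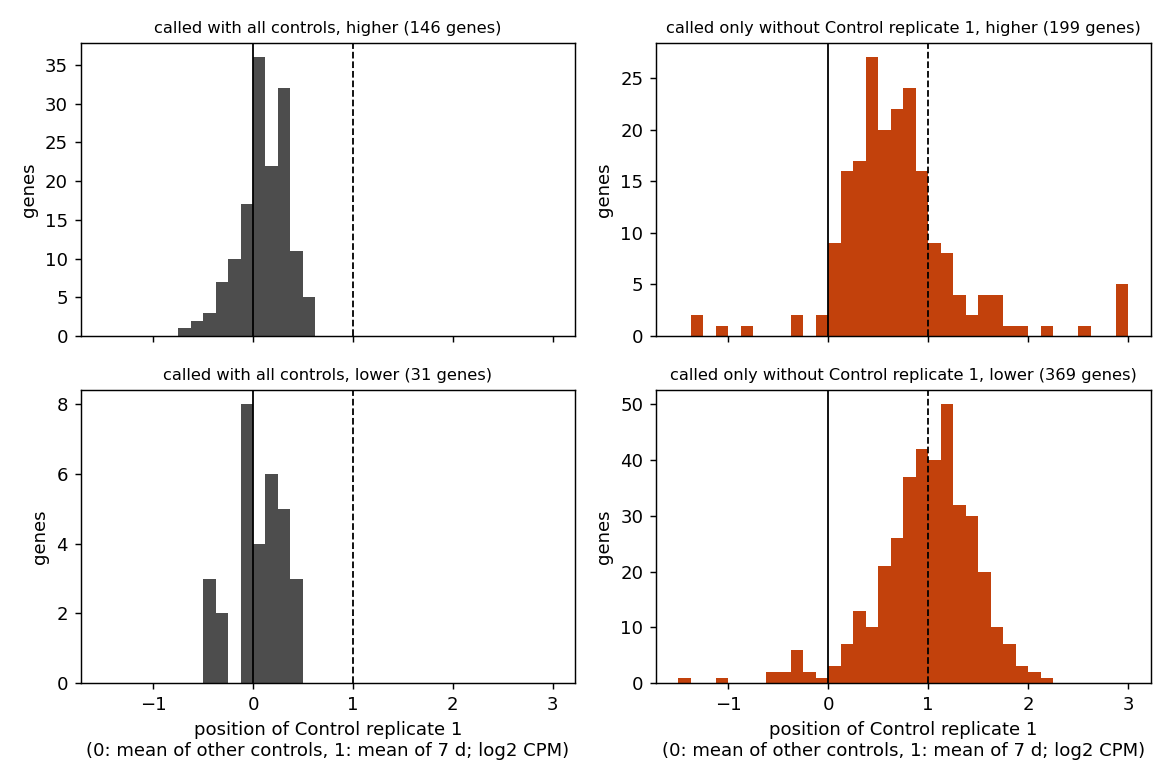
Number of genes by the position of Control replicate 1 in log2 CPM between the mean of the other controls (0, solid line) and the mean of the 7 d libraries (1, dashed line), for genes called with all controls (left) and only without Control replicate 1 (right), higher above and lower below; values are limited to the ends of the axis. The genes at the left centre near 0.110, and the 369 lower genes at the right centre near 1.03.

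The largest changes in this second set differed between the fits with and without Control replicate 1. The top-ranked higher gene measured 3.20, 1.18 and 1.04 CPM in Control and 3.33, 9.47 and 5.27 CPM at 7 d. Its log2 fold change was 2.43 without Control replicate 1 (edgeR adjusted p = 0.0154) and 1.74 with it (adjusted p = 0.159). The higher gene of rank 3 changed sign. It stood at 34.0 CPM in Control replicate 1, at 1.82 and 1.37 CPM in the other controls and at 6.71, 5.90 and 6.45 CPM at 7 d, so that its log2 fold change was 1.99 without Control replicate 1 (adjusted p = 0.00464) and -0.96 with it (adjusted p = 0.803). Such a change of sign occurred in 7 of the 199 higher genes and in 0 of the 369 lower genes.

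The top-ranked lower gene measured 1.10, 3.86 and 10.8 CPM in Control and 0.887, 0.834 and 0.897 CPM at 7 d, so that Control replicate 1 stood next to the 7 d libraries. Its log2 fold change was -3.06 without Control replicate 1 (edgeR adjusted p = 0.00464) and -2.58 with it (adjusted p = 0.157). The other controls also lay far apart from each other in this gene. By the way the set was formed, the 568 genes were called against Control replicates 2 and 3 and not against all 3 controls. Which of the controls is the better reference was not tested.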

How the data were processed

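Bulk RNA sequencing libraries of 9 rat hypothalamic samples were used, 3 each of Control, PEL_1d and PEL_7d, grouped by title. The authors deposited raw counts per gene in 1 table of 34784 rows. The submitters' processing notes name featureCounts 1.5.0-p3, HISAT2 2.0.5 and DESeq2 1.16.1. The genome build, annotation and strand setting behind the deposited counts are not stated there, so genes that overlap, antisense partners and near-identical copies may share reads.

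After filterByExpr and TMM scaling, genes were tested by robust quasi-likelihood in edgeR 4.0.16 (R 4.3.3), in 1 fit of all 9 libraries, with the contrast of 7 d minus Control. Tests were two-sided, with Benjamini-Hochberg adjustment over all genes tested. Standard errors were derived from the log2 fold change and the F statistic. Position values used log2 CPM with a prior count of 2. Counting intervals and floors cover counting error only. The scripts were tested on simulated data.

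The members and gene lists were chosen with earlier results of these data known. Of 34784 IDs, 0 matched a symbol (47357 reference rows, 0 with an Ensembl ID), so 29 gene lists were not tested, and the rule for named genes (the 12 largest rises and 10 largest falls that were called, reached a mean of 5 CPM in 1 group and did not overlap, and the 4 largest of each direction called only without Control replicate 1) ran on IDs. The core of 6 genes and the other genes described by rank were chosen after their values were seen. Alternatives were other scalings and filters, DESeq2 1.42.0, limma-voom (limma 3.58.1), a fit of the compared libraries alone, a replicate block and leaving out each library. Replicates of a group differed by more than sampling noise (chi-square per degree of freedom 9.61 to 40.5).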

Additional observations from a re-analysis of the deposited data

How the results depend on the processing

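The number of genes called at 7 d was 177 (146 higher, 31 lower) and stayed within 1.5 times of that with 3 other scalings, 2 other filters and limma-voom (141 to 205 genes). DESeq2 called 523 genes (346 higher, 177 lower), among them all 177, and the fit of the 6 compared libraries called 28 (22 higher, 6 lower), 27 of them shared. Leaving out 1 library at a time gave 7 to 739 calls, 5 to 340 of them higher and 2 to 399 lower; the lowest were without Control replicate 2 and the highest without Control replicate 1. Without Control replicate 1, the 739 calls became 1260 with DESeq2, 617 in a fit of the compared libraries alone, 922 with library totals as scaling, and 255 to 359 when a 7 d library was left out too, an alternative chosen after the data were seen. The cause of these moves was not tested.

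Groups share replicate numbers, but the libraries showed no sign of pairing by number. The correlations of same-numbered Control and 7 d libraries were -0.00967, 0.0314 and -0.0417 for numbers 1, 2 and 3, and not every library correlated best with its own number. With 3 libraries a group such values cannot exclude a pairing or a shared batch. With replicate number as a block 74 genes were called (57 higher, 17 lower), 71 of them among the 177. Over 18 alternatives the direction of the 4 genes given by ID held, but it could hardly change, since they were picked for groups that did not overlap. The call held in 12 for ENSRNOG00000024028, 15 for ENSRNOG00000048295, 8 for ENSRNOG00000021229 and 8 for ENSRNOG00000031662. Depth limits the rises with few Control counts: 1 had 0 counts and 3 had 1 to 3 counts in the 3 Control libraries together.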
